A study of Homo sapiens with 18 samples.

Results

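The genes of the proteasome were followed in ARPE-19 cells. They were all the gene symbols of the count tables made of PSM, 1 letter from A to G and a number. This gave 48 of the 23411 symbols. The 19 PSMA and PSMB genes encode the core particle, the 20 PSMC and PSMD genes encode the regulatory particle and 3 of its assembly chaperones, and the 9 PSME, PSMF and PSMG genes encode activators, an inhibitor and the assembly chaperones of the core. The rule used the symbols and no measured level, but it was set with earlier results of these data known.

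The proteasome is the machine that cuts most intracellular proteins into peptides. Its core is a barrel of stacked rings of α and β subunits whose catalytic β subunits face an inner chamber, and regulatory particles at its ends recognise ubiquitin chains, unfold the substrate with a ring of ATPases and feed it into the barrel. NRF2 itself, the product of NFE2L2, is held low by proteasomal degradation, and both NRF2 and its relative NRF1, the product of NFE2L1, are known as activators of proteasome genes under stress.

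ARPE-19 is a spontaneously arising line of human retinal pigment epithelium, and RNA of 18 samples was sequenced, 3 in each of 6 groups. Control cells, labelled WT, carried a Cas9 lentivirus without guide RNA. NRF2-edited cells, called NRF2 ΔC, carried the same vector with a guide against the last exon of NFE2L2, and are a single clone whose edited alleles lost the C-terminal part of the protein. Each line was left untreated (Milli-Q H2O) or was given 1 mM NACET, the ethyl ester of N-acetylcysteine, or 0.2 mM H2O2. The design text states an exposure of 8 h that followed 40 h of culture with 10% FCS. In the labels these are 2 h, 22 h and 1% FCS. The comparisons asked how each treatment changed the transcriptome of each line and whether the loss of NRF2 function altered it. The labels do not say that the 3 samples of a group were separate cultures, so every p-value measures only the spread between these samples, which may be technical.

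From 16673306 to 25951154 reads per library fell on genes, and the 48 proteasome genes took 0.425 to 0.662% of them. Levels are given as CPM, the reads of a gene scaled to a common library size, after TMM normalization over the 18 libraries. NFE2L2 itself was at 120, 127 and 127 CPM in untreated control and at 124, 127 and 128 CPM in untreated NRF2 ΔC cells with overlap, so its count does not show the edit. It fell slightly with NACET in the paired fit explained below (log2 fold change -0.22 in control and -0.21 in NRF2 ΔC cells, edgeR adjusted p = 0.000959 and 0.0339), and no unpaired fit called it. Of the markers of retinal pigment epithelium, MITF was at 64.8 to 185 CPM and OTX2 at 107 to 181 CPM, whereas the defining genes RPE65 and TTR had at most 1 and 2 reads per library, and TYR and RLBP1 reached at most 0.5 and 0.393 CPM. In 2 measures the library numbered 1 was the lowest of its group. The summed level of the proteasome genes was lowest in the library numbered 1 in 6 of 6 groups, at 4309 to 5460 CPM against 5126 to 6661 CPM in the others. So was the share of reads mapped to several places, at 8.24 to 8.84% against 8.87 to 10.4%. Whether the 2 are linked was not tested. Within a cell line the libraries of the same number deviated together, so that the treatments were also tested with the replicate number as a block, which compares same-numbered samples. In what follows this is called the paired fit, and the fit without the block the unpaired fit. Both are quasi-likelihood tests of edgeR with a Benjamini-Hochberg adjusted p under 0.05 as the threshold.

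Of the 48 proteasome genes, 46 passed the filter on low counts in every comparison. The exceptions were the tissue-restricted members. PSMA8, the α subunit of the testis, had no read in any library, which allows a level of up to 0.174 CPM in the shallowest one, a limit that covers counting error only. PSMB11, the catalytic β subunit of the thymus, had 2 reads in all 18 libraries together.

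The level per kb of transcript was computed with the length of the GENCODE canonical transcript, since the annotation behind the counts is not given in the sources used here. On this scale the 7 constitutive α subunits spanned 28.3 (PSMA5) to 207 (PSMA7) CPM per kb with a median of 91.7, and the 4 structural β subunits spanned 30.5 (PSMB2) to 238 (PSMB4). These values depend on the length used. PSMA4 and PSMA1 had 172 and 171 CPM but 39.3 and 143 CPM per kb, with lengths of 4378 and 1195 bases. The lengths of PSMA5 and PSMB2 were 3815 and 4426 bases. By CPM alone PSMA6 was the lowest α subunit, at 67.4 against 108 for PSMA5. Which transcripts the cells express was not tested. The 3 constitutive catalytic subunits lay close to each other. PSMB5, the chymotrypsin-like subunit, had a mean of 149 CPM per kb over the 18 samples, PSMB6, the caspase-like subunit, 128, and PSMB7, the trypsin-like subunit, 109. Their ranges over the samples overlapped, but within a sample the order was the same in 18 of 18. The 3 inducible subunits that take their places in the immunoproteasome were lower, at 38.3 for PSMB8, 4.51 for PSMB9 and 24.9 for PSMB10. For each of the 3 pairs the highest sample of the inducible member lay below the lowest sample of the constitutive one (48.0 against 119, 7.30 against 100 and 31.7 against 85.3 CPM per kb).

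Among the regulatory particle genes PSMD2, the large non-ATPase subunit on which ubiquitin shuttles dock, was highest at 216 CPM per kb, and PSMD12 was the lowest of the 11 non-ATPases at 18.9. The length used for PSMD12 was 4356 bases, and by CPM alone PSMD11 was lower (78.4 against 82.3 CPM). PSME1, a subunit of the interferon-inducible activator PA28, had 200 CPM per kb against 42.4 for its partner PSME2. The nuclear activators PSME3 (PA28γ) and PSME4 (PA200) had 53.9 and 17.5, and the inhibitor PSMF1 (PI31) had 13.2. The lengths used for PSME4 and PSMF1 were 7250 and 8154 bases, and their means were 127 and 108 CPM. The 7 assembly chaperones were low, from 15.1 for PSMG3 to 48.5 for PSMG2.

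**Figure D1:**
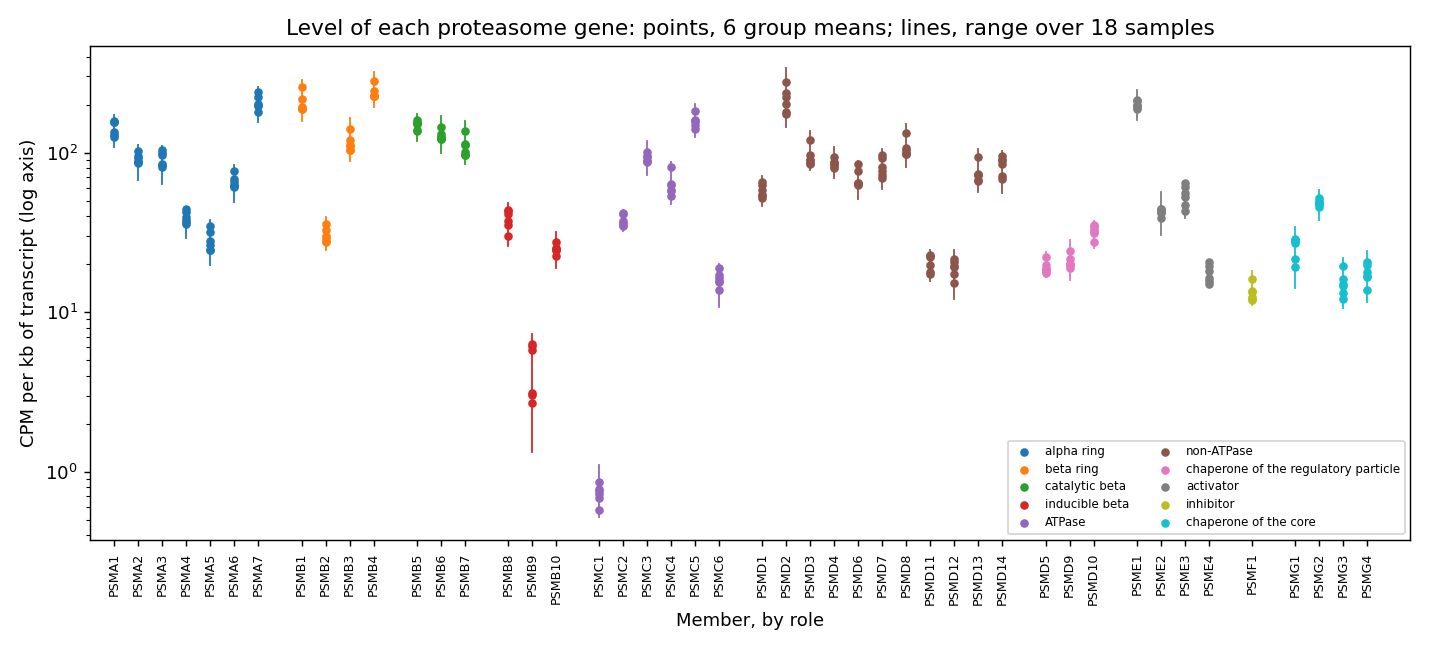
Level of the 46 members that passed the filter, in CPM per kb of the canonical transcript on a log axis, ordered by role. Points are the means of the 6 groups and lines run from the lowest to the highest of the 18 samples. The inducible catalytic subunits lie below their constitutive counterparts, and PSMC1 is the lowest at 0.73 CPM per kb.

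Some levels are uncertain because near-identical copies exist. For each member, the share of 50-base words of the canonical transcript that recur elsewhere in the GRCh37 genome was counted. It was 0 for 26 members and exceeded 10% for 6. PSMC1, an ATPase of the ring and needed in the same number of copies as the other 5, had 38% of its words elsewhere, chiefly in the processed pseudogene PSMC1P1, and only 0.73 CPM per kb, against 16.2 for PSMC6 and 158 for PSMC5. PSMC6 (30.7%), PSMA6 (27.6%), PSMD4 (23.4%), PSME2 (19.8%) and PSMD2 (11.3%) were the others. Reads mapped to several places were not counted, so the levels of these 6 genes are uncertain, and the part that the copies play was not tested. The counting ignored strand, and exons of genes on the opposite strand overlap 13.7% of the canonical transcript of PSMC5 (FTSJ3) and 2.15% of that of PSME4 (ACYP2). Annotated exons of PSMB8 and PSMB9 outside their canonical transcripts overlap each other on opposite strands.

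H2O2 raised many, but not all, of the proteasome genes in control cells by small amounts, most of them in the paired fit only. In the paired fit 31 of the 46 tested members rose and 0 fell, which is 67.4% of the members, whereas 48.7% of all 13691 genes changed in either direction and 24.1% rose. The unpaired fit called 4 members, all of them higher, or 8.70% of the members. Of all genes it called 13.2% in either direction and 7.06% higher. The median log2 fold change of the members was 0.20 and that of all genes was 0.00, and 36 members were higher in all 3 same-numbered pairs (78.3%, against 32.1% of all genes). No member reached a log2 fold change of 0.6.

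The 4 members called without pairing were 2 activators and 2 subunits of the lid, the part of the regulatory particle that removes ubiquitin. PSME3, which activates the core in the nucleus, was at 124, 144 and 140 CPM in untreated control cells and at 194, 209 and 178 CPM after H2O2. Each treated sample lay above each untreated one. The log2 fold change was 0.53 ± 0.096 (SE, edgeR adjusted p = 0.0133). PSME4, the large nuclear activator, rose from 107, 121 and 115 CPM to 147, 154 and 146 CPM without overlap (log2 fold change 0.40 ± 0.081, edgeR adjusted p = 0.0182). PSMD7, the partner of the deubiquitinase PSMD14, was at 96.8, 120 and 122 CPM before and at 133, 154 and 163 CPM after treatment, again without overlap (0.42 ± 0.11, edgeR adjusted p = 0.0435). PSMD11, a scaffold subunit of the lid, went from 60.4, 73.6 and 65.4 CPM to 87.5, 94.6 and 81.4 CPM (0.42 ± 0.10, edgeR adjusted p = 0.0309). Leaving out 1 library changed the count, given here with the percent of members against that of all genes. Without the H2O2 library numbered 1, 2 or 3 it was 1 (2.17 against 5.9%), 0 (0 against 2.24%) and 3 (6.52 against 9.09%). Without the untreated library numbered 1, 2 or 3 it was 1 (2.17 against 6.33%), 2 (4.35 against 4.42%) and 5 (10.9 against 12.2%). Leaving out both libraries numbered 1 left 0, against 2.12% of all genes.

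By position in hg19 (GRCh37), with the gene models of GENCODE, PSME3 lies on the plus strand at chr17:40976402-40995777, PSMD11 on the plus strand at chr17:30771397-30810337, PSMD7 on the plus strand at chr16:74330712-74340186 and PSME4 on the minus strand at chr2:54091206-54198130. Their promoters, 250 bases before to 50 bases after the transcription start, are shown. Added are the promoters of PSMG1, the member with the largest change under NACET, and PSMB9, the member called between the cell lines in the unpaired fit. They come from RefSeq (GRCh38.p14), on the strand of the gene and read 5′ to 3′. Capitals mark 2 motifs searched on both strands, the core TGACNNNGC of the antioxidant response element, to which NRF2 and NRF1 bind with small MAF proteins, and CCAAT, the box bound by NF-Y. The capitals of the 2 motifs did not overlap in these windows. The windows lie at chr17:42833147-42833446 for PSME3, chr2:53970944-53971243 for PSME4, chr16:74296564-74296863 for PSMD7, chr17:32444260-32444559 for PSMD11, chr21:39183402-39183701 for PSMG1 and chr6:32853942-32854241 for PSMB9.
PSME3: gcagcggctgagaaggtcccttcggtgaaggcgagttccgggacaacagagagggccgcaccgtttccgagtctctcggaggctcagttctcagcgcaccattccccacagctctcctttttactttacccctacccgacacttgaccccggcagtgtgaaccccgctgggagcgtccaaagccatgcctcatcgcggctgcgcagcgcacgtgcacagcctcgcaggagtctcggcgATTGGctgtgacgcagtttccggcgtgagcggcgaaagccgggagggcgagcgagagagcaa
PSME4: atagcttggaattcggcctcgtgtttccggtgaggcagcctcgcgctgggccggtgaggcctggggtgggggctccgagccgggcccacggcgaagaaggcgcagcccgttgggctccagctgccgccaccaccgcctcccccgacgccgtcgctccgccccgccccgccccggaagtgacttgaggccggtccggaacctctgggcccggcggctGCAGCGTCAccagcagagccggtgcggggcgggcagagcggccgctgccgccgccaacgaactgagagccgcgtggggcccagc
PSMD7: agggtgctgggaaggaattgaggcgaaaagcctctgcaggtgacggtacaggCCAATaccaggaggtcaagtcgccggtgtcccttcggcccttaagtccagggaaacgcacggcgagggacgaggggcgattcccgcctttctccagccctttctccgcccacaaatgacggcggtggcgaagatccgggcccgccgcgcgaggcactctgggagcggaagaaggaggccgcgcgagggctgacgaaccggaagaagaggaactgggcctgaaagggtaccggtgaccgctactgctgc
PSMD11: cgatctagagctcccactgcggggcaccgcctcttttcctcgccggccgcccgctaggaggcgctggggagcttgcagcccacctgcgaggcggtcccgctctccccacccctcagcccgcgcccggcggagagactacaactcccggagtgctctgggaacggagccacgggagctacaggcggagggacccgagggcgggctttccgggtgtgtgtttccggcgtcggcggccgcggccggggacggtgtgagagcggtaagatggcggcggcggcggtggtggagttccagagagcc
PSMG1: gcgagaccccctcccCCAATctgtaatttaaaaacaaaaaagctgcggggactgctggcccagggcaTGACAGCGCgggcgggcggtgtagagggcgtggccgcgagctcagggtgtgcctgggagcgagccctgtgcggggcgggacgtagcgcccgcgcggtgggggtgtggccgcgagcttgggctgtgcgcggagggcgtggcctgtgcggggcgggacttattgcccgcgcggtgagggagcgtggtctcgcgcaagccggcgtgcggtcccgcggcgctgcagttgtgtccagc
PSMB9: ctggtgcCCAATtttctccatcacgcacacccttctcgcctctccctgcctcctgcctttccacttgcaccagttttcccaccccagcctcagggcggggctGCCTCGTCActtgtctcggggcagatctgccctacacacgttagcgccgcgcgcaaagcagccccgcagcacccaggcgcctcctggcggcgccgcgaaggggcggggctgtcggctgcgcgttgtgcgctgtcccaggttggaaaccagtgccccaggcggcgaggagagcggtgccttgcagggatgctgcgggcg

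Letters of the antioxidant response element core stood in the windows of PSME4, PSMG1 and PSMB9, and a CCAAT box stood in those of PSME3, PSMD7, PSMG1 and PSMB9. The PSMD11 window held neither. RefSeq windows were at hand for 42 of the 48 members and not for PSMA7, PSMB1, PSMB6, PSMB7, PSMD4 and PSMG3. The core of the antioxidant response element was present for 15 of the 42 (35.7%), against 16.1% of all 27305 genes with a window, and CCAAT for 20 (47.6%), against 39.7%. Among members that rose with H2O2 in control cells in the paired fit, 9 of 27 with a window held the former and 15 held the latter, and among those that did not, 6 of 13 and 4. A match of letters does not show a binding site.

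Of the core particle, 11 of 17 tested genes rose with H2O2 in control cells in the paired fit, among them all 7 α subunits. PSMA5 rose most (75.6, 97.4 and 109 CPM before, 115, 127 and 123 CPM after, paired log2 fold change 0.40 ± 0.0645, edgeR adjusted p = 9.5e-05). The constitutive catalytic subunits PSMB5 and PSMB7 rose (0.17 and 0.24, edgeR adjusted p = 0.00898 and 0.0013 in the paired fit), and PSMB6 had a paired log2 fold change of -0.03 ± 0.050. None of the 3 inducible subunits passed, with values of 0.04 for PSMB8, -0.11 for PSMB9 and -0.12 for PSMB10.

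Of the regulatory particle, 5 of 6 ATPases and 9 of 11 non-ATPases rose in the paired fit. PSMD12, a lid subunit, was at 52.5, 78.1 and 68.4 CPM before and 78.1, 103 and 89.4 CPM after, and PSMD14, the deubiquitinase of the lid, at 87.6, 122 and 112 CPM before and 134, 152 and 138 CPM after. In both genes every same-numbered pair was higher after H2O2 (paired log2 fold changes 0.47 ± 0.056 and 0.43 ± 0.059, edgeR adjusted p = 5.32e-06 and 2.09e-05). Of the subunits that bind ubiquitin or its shuttles, PSMD2 (0.08) and PSMD4 (0.04) did not pass, whereas the receptor ADRM1, whose symbol is no PSM symbol, rose from 81.2, 91.0 and 95.8 CPM to 95.9, 116 and 111 CPM, without overlap (0.29 ± 0.052, edgeR adjusted p = 0.000256 in the paired fit and 0.0883 in the unpaired one). Of the chaperones of the regulatory particle PSMD5 rose (0.31, edgeR adjusted p = 0.000247 in the paired fit), while PSMD9 and PSMD10 had values of 0.03 and -0.05.

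Of the assembly chaperones of the core, PSMG1 and PSMG3 rose. PSMG1, which with PSMG2 guides the α ring, was at 26.2, 36.0 and 39.4 CPM before and at 38.8, 50.8 and 53.9 CPM after H2O2. The ranges overlapped, but each pair moved upward, with a paired log2 fold change of 0.52 ± 0.063 (edgeR adjusted p = 5.45e-06). Its partner PSMG2 had a value of 0.07. The interferon-inducible activators PSME1 and PSME2 had values of -0.11 and -0.03 and did not pass, whereas the inhibitor PSMF1 rose by 0.17 (edgeR adjusted p = 0.00994 in the paired fit). Without replicate number 1, 2 or 3 the paired fit called 28, 25 and 31 members in either direction, of which 27, 25 and 31 rose. The calls are 60.9, 54.3 and 67.4% of the members, against 43.7, 32.6 and 42.7% of all genes called in either direction.

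**Figure D2:**
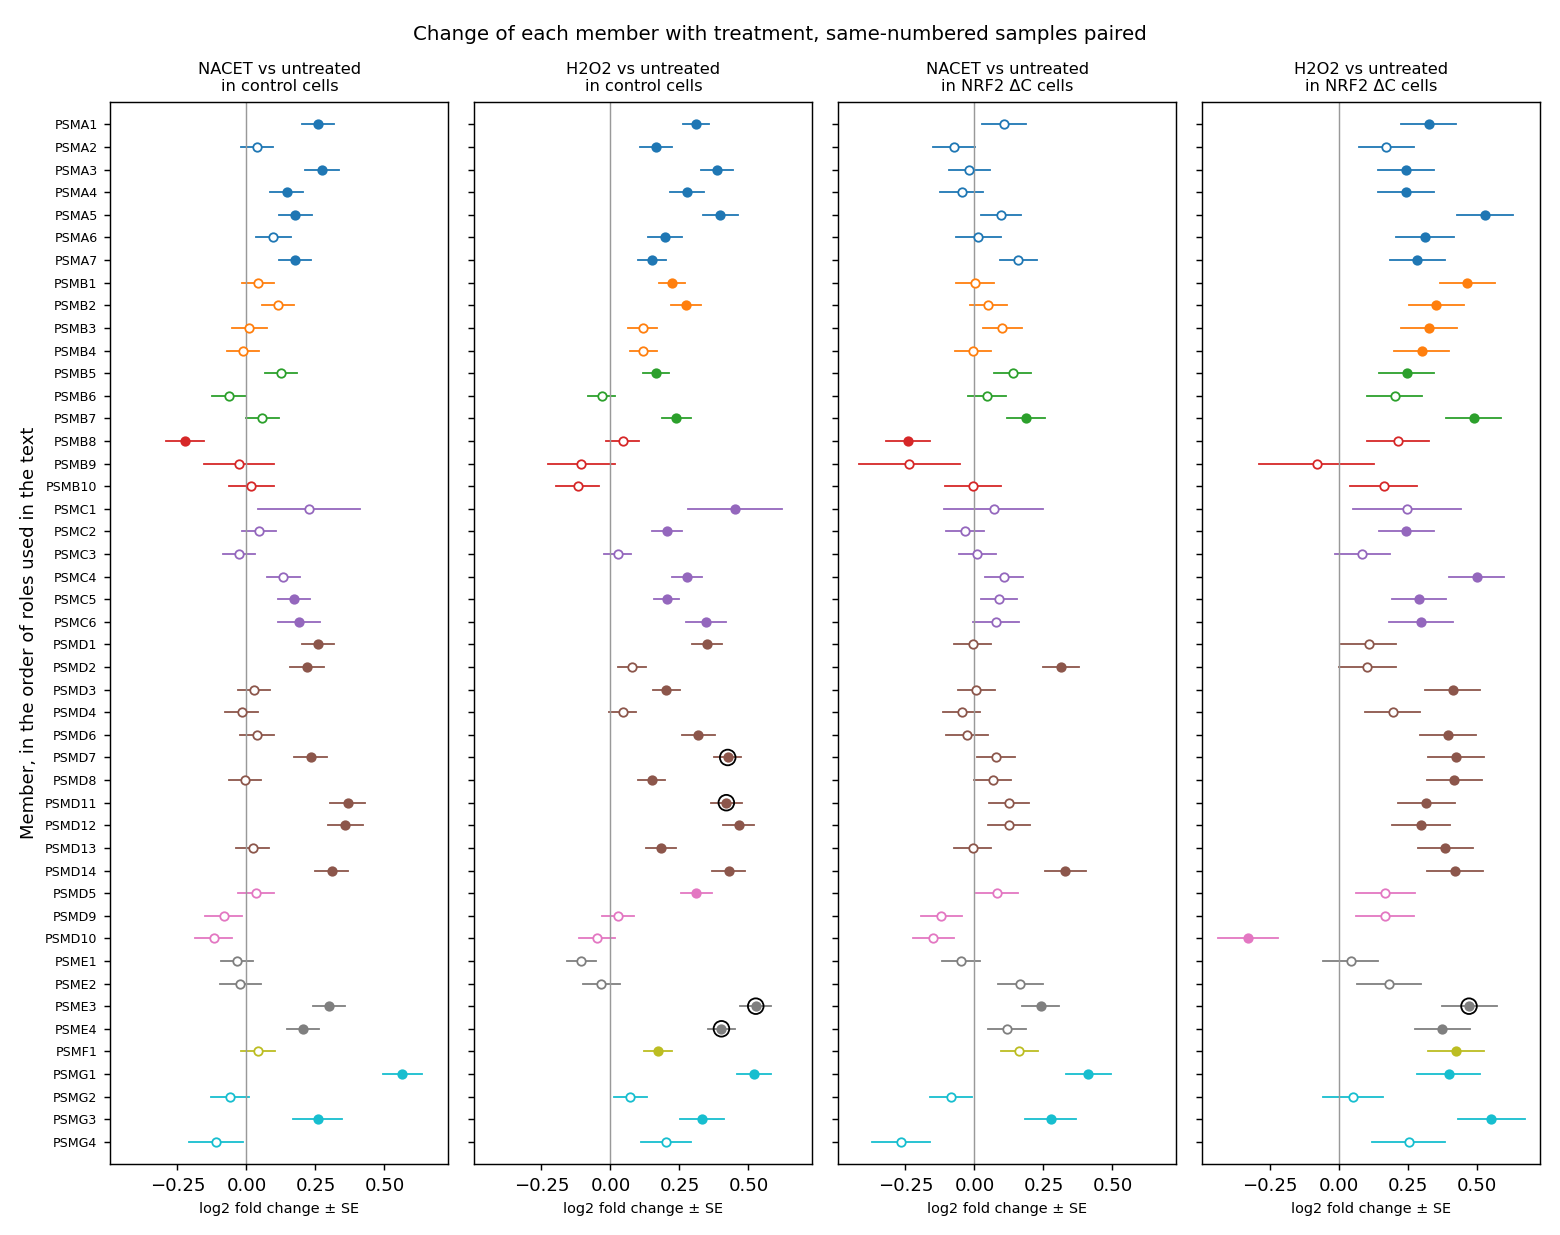
Log2 fold change ± SE of the 46 tested members with NACET or H2O2 in control and NRF2 ΔC cells, from the paired fit. Filled points passed an adjusted p of 0.05 in the paired fit, and black rings mark those that also passed without pairing. With H2O2 31 members rose in control cells and 29 in NRF2 ΔC cells, with PSMD10 as the one that fell.

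In NRF2 ΔC cells proteasome genes also rose with H2O2. The paired fit called 29 members higher and 1 lower, 63% of the members higher against 21.9% of all 13543 genes, and 46.5% of all genes called in either direction. The unpaired fit called 1 member, PSME3, or 2.17% against 11.1% of all genes. The median log2 fold change was 0.29 for the members and -0.01 for all genes, and 35 members (76.1%) were higher in all 3 same-numbered pairs, against 32.6% of all genes. Without the samples numbered 2 the paired fit called 14 members (30.4%), all higher, and without those numbered 1 or 3 it called 19 and 30 higher and 1 lower each. In these 3 fits 32.2, 36.5 and 42.9% of all genes were called. In the unpaired fit leaving out the H2O2 library numbered 1 raised the calls to 11 (23.9% of the members, against 23.1% of all genes). Leaving out both libraries numbered 1 raised them to 12 (26.1% against 27.8%). Both of these shares are at the background. With any other library left out the count was 0, against 2.0 to 7.66% of all genes.

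PSME3 was at 140, 148 and 160 CPM in untreated NRF2 ΔC cells and at 207, 208 and 203 CPM after H2O2, without overlap (log2 fold change 0.47 ± 0.12, unpaired edgeR adjusted p = 0.039). The chaperone PSMG3 had the largest paired log2 fold change, 0.55 ± 0.12 (edgeR adjusted p = 8.32e-05), from 15.2, 20.3 and 21.1 CPM to 21.7, 31.1 and 30.1 CPM. PSMA5 followed (0.53 ± 0.10), then the ATPase PSMC4 (0.50 ± 0.099) and the catalytic PSMB7 (0.49 ± 0.10), which went from 83.9, 96.8 and 106 CPM to 106, 144 and 154 CPM. In PSMB7 sample 1 moved least. All 4 structural β subunits rose, as did 6 of 7 α subunits, 4 of 6 ATPases and 8 of 11 non-ATPases. The inhibitor PSMF1 rose by 0.43 (edgeR adjusted p = 0.000214 in the paired fit) and PSME4 by 0.38 (0.00106). The paired values of the inducible subunits, 0.22 for PSMB8, -0.08 for PSMB9 and 0.16 for PSMB10, did not pass, nor did those of PSME1 (0.04) and PSME2 (0.18).

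PSMD10 (gankyrin, a chaperone of the ATPase ring) was the member that fell. It was at 50.3, 50.6 and 51.0 CPM before and 44.6, 37.1 and 39.3 CPM after H2O2, without overlap and lower in each pair. The paired log2 fold change was -0.33 ± 0.11 (edgeR adjusted p = 0.0104), while the unpaired fit gave an edgeR adjusted p of 0.14. In control cells the gene was at 48.8, 55.1 and 50.3 CPM before and 48.0, 47.8 and 51.5 CPM after H2O2. The difference between the lines was 0.26 ± 0.14 and did not pass (edgeR adjusted p = 0.919, and 0.375 with the block).

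**Figure D3:**
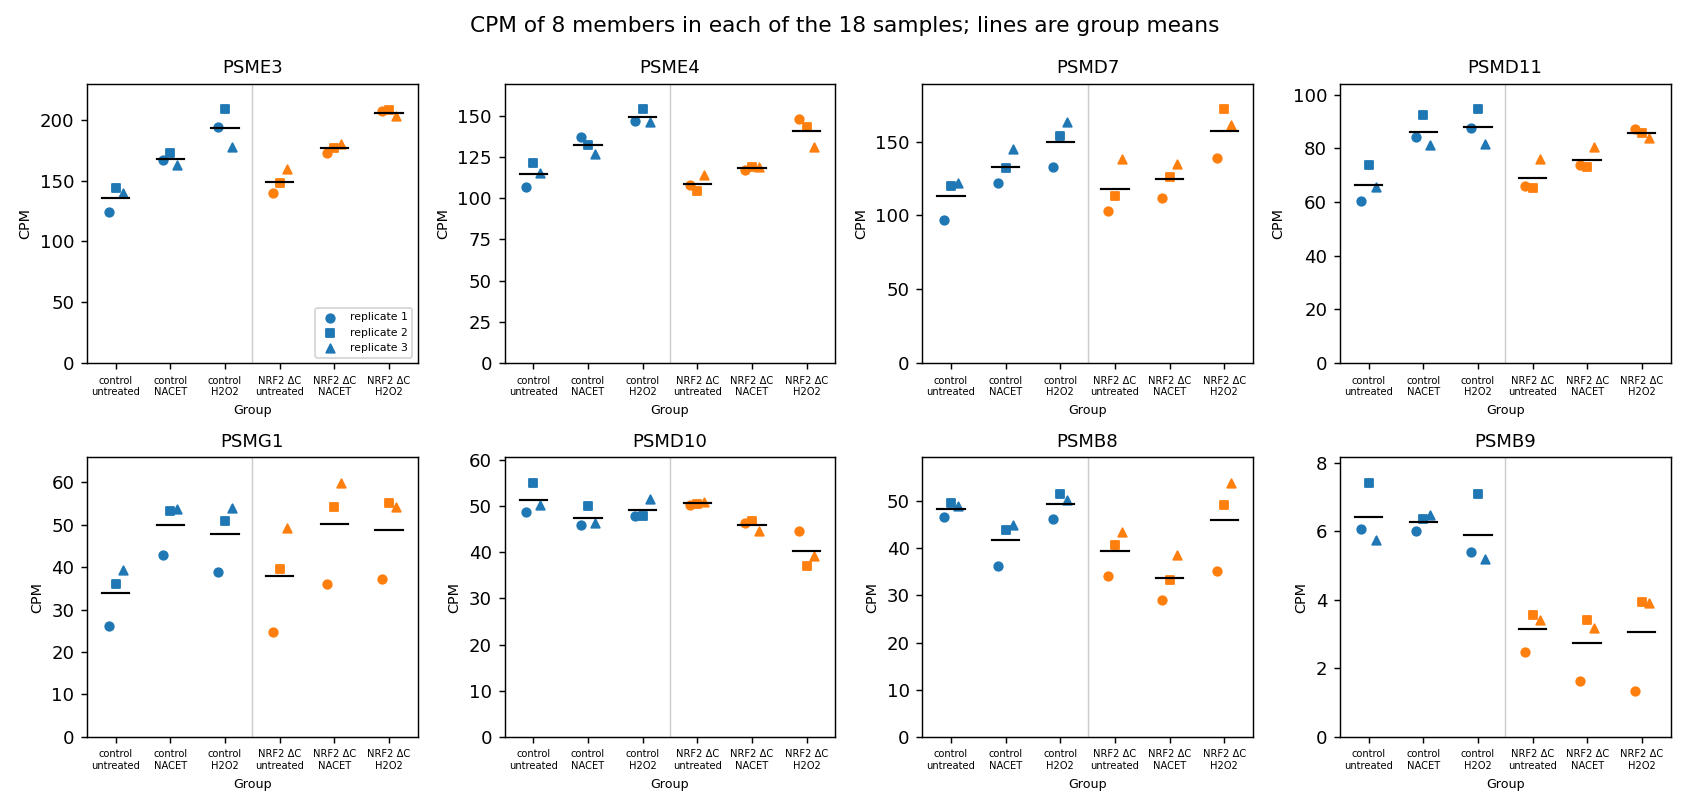
CPM of 8 members in the 18 samples, with a marker for each replicate number and a line at each group mean. PSME3 is higher in all 6 H2O2 samples than in all 6 untreated ones, PSMD10 is lower in the 3 NRF2 ΔC samples given H2O2, and PSMB9 is lower in all 9 NRF2 ΔC samples than in all 9 control samples.

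With NACET fewer proteasome genes passed the tests. In control cells edgeR called 0 members without pairing, against 3.67% of all 13696 genes, with 7 members at an unadjusted p under 0.05 and 2 called by DESeq2. No share of all genes is given for the last 2 counts. The paired fit called 17 higher and 1 lower. These 18 members are 39.1%, close to the 40.7% of all genes that the paired fit called, although 37% of the members and 20.1% of all genes rose. The median log2 fold change of the members was 0.05, beside -0.01 for all genes. It moved to 0.0141 without the NACET library numbered 3 and to 0.15 without the untreated library numbered 3. Of the members, 21 members (45.7%) were higher in all 3 pairs against 31.0% of all genes. Without replicate number 1, 2 or 3 the paired fit called 15 members each (32.6%), against 36.8, 28.9 and 31.1% of all genes.

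PSMG1 had the largest change with NACET in both lines. In control cells it was at 26.2, 36.0 and 39.4 CPM before and 42.9, 53.2 and 53.8 CPM after NACET, without overlap. The paired log2 fold change was 0.56 ± 0.070 (edgeR adjusted p = 3.61e-13), and the unpaired fit gave an edgeR adjusted p of 0.10. In NRF2 ΔC cells PSMG1 was at 24.7, 39.6 and 49.3 CPM before and 36.0, 54.3 and 59.9 CPM after (paired 0.41 ± 0.082, edgeR adjusted p = 0.000962). There the spread between replicate numbers was wider than the change, and each pair moved upward. The difference between the lines was 0.17 ± 0.35 (edgeR adjusted p = 1).

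The other members that rose with NACET in control cells in the paired fit included the lid subunits PSMD11 (0.37, edgeR adjusted p = 1.46e-07), PSMD12 (0.36, 4.18e-07) and PSMD14 (0.31, 2.81e-06), and PSME3 (0.30, 3.81e-06). PSMD11 went from 60.4, 73.6 and 65.4 CPM to 84.3, 92.2 and 81.2 CPM without overlap. PSME3 went from 124, 144 and 140 CPM to 167, 173 and 163 CPM, also without overlap. Of the core, 5 of 7 α subunits rose and none of the 4 structural or 3 constitutive catalytic β subunits did. PSMB8, which replaces PSMB5 in the immunoproteasome, fell from 46.6, 49.6 and 49.0 CPM to 36.2, 43.9 and 45.0 CPM without overlap, with a paired log2 fold change of -0.22 ± 0.069 (edgeR adjusted p = 0.00472). The unpaired fit gave an edgeR adjusted p of 0.289 for PSMB8, and without the samples numbered 1 the paired fit gave -0.15 (edgeR adjusted p = 0.0624).

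In NRF2 ΔC cells NACET gave 0 calls in the unpaired fit of edgeR, against 1.43% of all 13542 genes, with 2 members at an unadjusted p under 0.05 and 0 called by DESeq2. The last 2 counts have no share of all genes beside them. The paired fit called 6 members higher and 1 lower, 15.2% against 34.0% of all genes, and 13.0% higher against 16.0%. The share of members was thus below the background. Those higher were PSMG1, PSMD14 (0.33), PSMD2 (0.32), PSMG3 (0.28), PSME3 (0.24) and PSMB7 (0.19). PSMB8 was the lower one, at 34.1, 40.6 and 43.4 CPM before and 29.0, 33.2 and 38.6 CPM after NACET (paired -0.24 ± 0.080, edgeR adjusted p = 0.0287). It was lower in each pair, and the groups overlapped. In all 3 pairs 18 members (39.1%) were higher, against 29.8% of all genes. Without replicate number 1, 2 or 3 the paired fit called 3, 10 and 4 members, against 21.7, 40.6 and 20.6% of all genes. In the paired fit PSMB8 did not pass without number 1 (edgeR adjusted p = 0.169) or number 3 (edgeR adjusted p = 0.104).

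**Figure D4:**
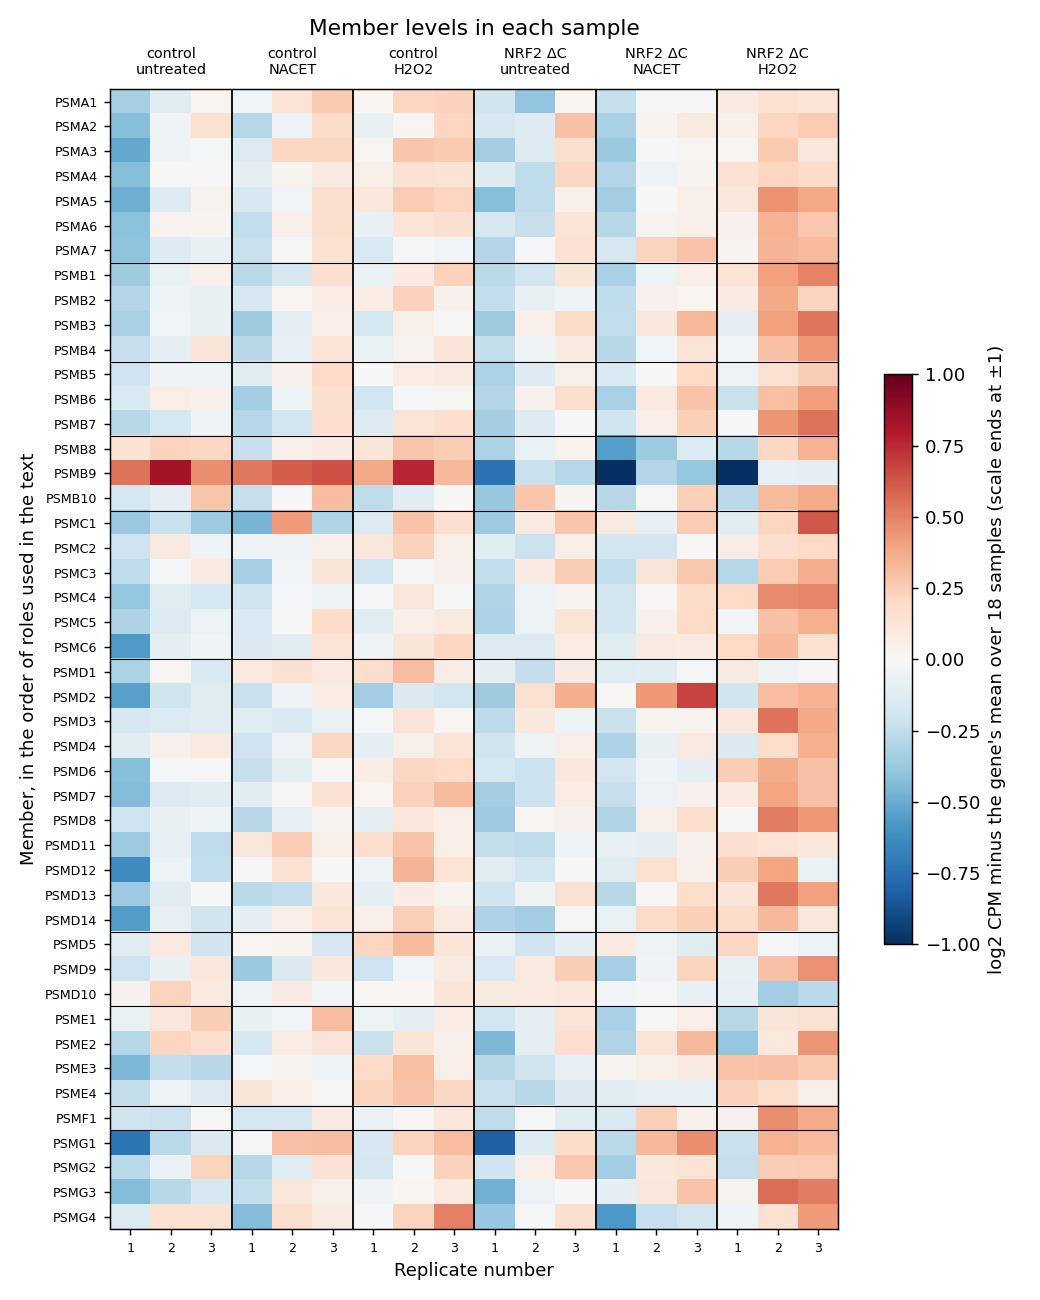
Log2 CPM of the 46 tested members in each sample, minus the gene's mean over the 18 samples, with members ordered by role and samples by group and replicate number. The library numbered 1 has the lowest summed level in each of the 6 groups, and PSMB9 splits the 9 control from the 9 NRF2 ΔC samples.

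Between the cell lines the immunoproteasome subunit PSMB9 was the member that the unpaired fit called. It was at 6.07, 7.42 and 5.75 CPM in untreated control and at 2.49, 3.56 and 3.42 CPM in untreated NRF2 ΔC cells. The log2 fold change was -1.02 ± 0.20 (edgeR adjusted p = 0.0248). With NACET the values were 6.00, 6.35 and 6.48 CPM in control and 1.63, 3.40 and 3.19 CPM in NRF2 ΔC cells (-1.22 ± 0.26, edgeR adjusted p = 0.0369). With H2O2 they were 5.41, 7.08 and 5.2 CPM against 1.35, 3.93 and 3.92 CPM (-0.94 ± 0.35), and this difference did not pass (edgeR adjusted p = 0.152). The groups did not overlap under any of the 3 conditions. These levels rest on 27 to 167 reads per library. Leaving out 1 library ended the call of PSMB9 in 4 of 6 fits in untreated cells (untreated control library 1 or 2, NRF2 ΔC library 2 or 3) and in 5 of 6 with NACET (all but NRF2 ΔC library 1), with log2 fold changes of -0.91 to -1.11 and -1.17 to -1.38 in those fits of PSMB9. NRF2 ΔC cells are 1 clone, so the edit and other features of the clone cannot be told apart.

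That was 1 member called of 46 in untreated cells (2.17% against 4.07% of all 13710 genes), 1 with NACET (2.17% against 5.42% of 13627) and 0 with H2O2 (against 6.23% of 13580, with 7 members at an unadjusted p under 0.05 and 0 called by DESeq2). The shares of members called by edgeR at an adjusted p under 0.05 lie below the background. No share of all genes is given for the unadjusted and DESeq2 counts. In the untreated comparison PSMB8, whose gene lies near PSMB9 in the class II region of the major histocompatibility complex, was at 46.6, 49.6 and 49.0 CPM in control and 34.1, 40.6 and 43.4 CPM in NRF2 ΔC cells (-0.30 ± 0.12, edgeR adjusted p = 0.281), and PSMB10, which lies on chromosome 16, had a value of -0.01 ± 0.18. With NACET PSMB8 was at 36.2, 43.9 and 45.0 CPM in control and 29.0, 33.2 and 38.6 CPM in NRF2 ΔC cells, with overlap. With H2O2 PSMB8 was at 46.2, 51.6 and 50.3 against 35.1, 49.1 and 53.9 CPM, also with overlap. PSMB9 lies at chr6:32811913-32827628 on the plus strand and PSMB8 at chr6:32808494-32812456 on the minus strand (GRCh37). PSMD2 had a higher mean in NRF2 ΔC cells under each condition, for example with 620, 829 and 981 CPM against 527, 598 and 646 CPM with NACET, where the groups overlapped, but did not pass (0.45 ± 0.17, edgeR adjusted p = 0.203). With H2O2 the count of members rose from 0 to 17 when the NRF2 ΔC library numbered 1 was left out, of which 16 were higher in NRF2 ΔC cells, while 30.9% of all genes were then called.

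No test showed that a treatment acted differently on a member in the 2 lines. edgeR called 0 members where NACET was tested against cell line, beside 0.0643% of all 14002 genes, and 0 where H2O2 was, beside 0.0214% of 13987. In both there were 0 members at an unadjusted p under 0.05 without the block and 0 called by DESeq2, counts that have no share of all genes beside them. Differences are given as the change in control cells minus that in NRF2 ΔC cells. They ranged from -0.19 to 0.29 with NACET and from -0.31 to 0.26 with H2O2, with medians of 0.04 and -0.10. Leaving out 1 library moved the first median between -0.069 (without the NRF2 ΔC NACET library numbered 1) and 0.124 (without number 3), so that its sign turned, and the second between -0.211 (without the untreated NRF2 ΔC library numbered 3) and -0.0381 (without the NRF2 ΔC H2O2 library numbered 3). For PSME3 the differences were 0.06 ± 0.12 and 0.04 ± 0.14, for PSMG3 -0.01 ± 0.21 and -0.24 ± 0.23, and for PSMB9 0.20 ± 0.34 and -0.08 ± 0.44. Errors of this size leave room for differences as large as many of the changes themselves.

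Beside the PSM symbols, 28 genes were followed. They encode the regulatory particle subunits ADRM1 and SHFM1, proteins that assemble the proteasome, bind it or bring substrates to it, NRF1 and its processing factors, or ubiquitin and its activating enzyme, and all 28 passed the filter. H2O2 raised 4 of them and lowered 0 in control cells in the unpaired fit, which is 14.3%. Of all genes 13.2% were called in either direction and 7.06% higher. In the paired fit 16 rose and 2 fell, 64.3% against 48.7%. The 4 of the unpaired fit were PITHD1, a proteasome-binding protein (0.59 ± 0.15, edgeR adjusted p = 0.0351), the ubiquitin ligase UBE3C that acts at the proteasome (0.40 ± 0.095, 0.0312), the shuttle UBQLN4 (0.35 ± 0.084, 0.0312) and KIAA0368, known as the proteasome adaptor ECPAS (0.32 ± 0.078, 0.032). PITHD1 was also the one called with NACET in control cells, from 37.6, 42.7 and 52.8 CPM to 66.0, 75.4 and 88.0 CPM (0.78 ± 0.15, edgeR adjusted p = 0.0353). That is 3.57% of the list, against 3.67% of all genes called in either direction and 1.91% called higher. The difference between the lines in the change of PITHD1 with NACET was 0.56 ± 0.20 and did not pass without the block (edgeR adjusted p = 1), but passed with it (edgeR adjusted p = 0.0246). In NRF2 ΔC cells 0 of the 28 were called without pairing. In the paired fit 7 rose and 0 fell with NACET, which is 25%. Of all genes 34.0% were called in either direction and 16.0% rose. With H2O2 10 rose and 0 fell, which is 35.7%, while 46.5% of all genes were called and 21.9% rose. The shares of the list lay below the background of calls in either direction and above that of rises. NFE2L1, the gene of NRF1, was at 917, 815 and 778 CPM in untreated control cells and at 722, 689 and 664 CPM after H2O2. It was lower in each pair and without overlap, and fell in the paired fit (-0.26 ± 0.045, edgeR adjusted p = 0.000209) but not in the unpaired one (edgeR adjusted p = 0.144). With NACET NFE2L1 fell in control cells in the paired fit to 698, 692 and 681 CPM (-0.28 ± 0.064, edgeR adjusted p = 0.000101). In NRF2 ΔC cells it was at 852, 815 and 765 CPM untreated, 802, 930 and 886 CPM with H2O2 and 782, 746 and 757 CPM with NACET, and passed neither test there. The difference between the lines in the change with H2O2 was -0.39 ± 0.15 and did not pass (edgeR adjusted p = 0.758, and 0.189 with the block).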

How the data were processed

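Raw counts per gene symbol were deposited by the authors, 1 table per sample. Per the study's methods and submitters' processing notes, single-end reads were mapped to hg19 with TopHat2 2.1.0 and counted over exons with HTSeq 0.11.2 without strand. The gene annotation is not given in the sources used here. The summary lines that name no gene stayed out of library sizes and tests.

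Groups followed the labels. Counts were tested with edgeR 4.0.16 in R 4.3.3 (filterByExpr, TMM, quasi-likelihood F test, two-sided) for each of 7 pairs of groups and 2 interactions, with p-values adjusted over all genes tested and a threshold of 0.05. The SE is the size of the log2 fold change divided by the square root of F. DESeq2 1.42.0 (the study's tool), other normalization factors and filters, a fit of all 18 samples, a replicate block and leaving out libraries were the alternatives. The script was tested on simulated counts. The 3 libraries of a group differed beyond sampling noise in every group.

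The pairing by replicate number was checked on genes of at least 5 CPM. The deviations from group means of same-numbered samples correlated at 0.471 to 0.876 in all 12 pairs within a cell line, over the limit of 0.1, and at -0.264 to 0.781 between lines, so between lines the fit without the block was kept and blocked values are alternatives.

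The members, gene lists and motifs were chosen with earlier results of these data known. Named genes were the members past the threshold (if over 12, the 6 highest and 6 lowest), the catalytic pairs, activators, inhibitor and chaperones, and called genes of the 28 others. Depth, from 16673306 to 25951154 reads on genes, gave each tested member at least 27 reads per library.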

Additional observations from a re-analysis of the deposited data

How the results depend on the processing

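Leaving out 1 library moved the median log2 fold change of the proteasome genes between 0.143 and 0.256 with H2O2 in control and 0.222 and 0.392 in NRF2 ΔC cells, between 0.0141 and 0.15 with NACET in control and -0.0338 and 0.134 in NRF2 ΔC cells, and, between the lines, from -0.0414 to 0.107 untreated, -0.0785 to 0.0838 with NACET and 0.0432 to 0.198 with H2O2. No called gene reversed. The counts of called members depended on the fit. With H2O2 in control cells, the 4 calls became 9 with DESeq2, 31 with the replicate block and 0 at a log2 fold change of at least 0.6. With the block and without replicate 1, 2 or 3 there were 28, 25 and 31. Without both replicate 1 libraries there were 0, against 2.12% of all genes. With 1 library left out there were 0 to 5 (0 to 10.9% of the members, against 2.24 to 12.2% of all genes). With H2O2 in NRF2 ΔC cells, the 1 call became 3 with DESeq2, 19 in 1 fit of all 18 samples and 0 at a log2 fold change of at least 0.6. With the block there were 30 (20, 14 and 31 without replicate 1, 2 or 3). Without both replicate 1 libraries there were 12 (26.1% of the members, against 27.8% of all genes). With 1 library left out there were 0 to 11 (0 to 23.9%, against 2.0 to 23.1%). With NACET in control cells, the 0 calls became 2 with DESeq2, 1 in the fit of 18 samples and 18 with the block (15 in each fit without a replicate number). With NACET in NRF2 ΔC cells, 0 became 7 with the block (3, 10 and 4). The cell lines share only a replicate number. With it as a block the calls between lines were 1 in untreated cells, 3 with NACET and 4 with H2O2 (8.84, 16.9 and 23.4% of all genes), and 0 for both interactions. Of the 3 with NACET, 2 were inducible catalytic subunits, both lower in NRF2 ΔC cells. The fit of 18 samples gave 0 in untreated cells and 2 with H2O2. Leaving out 1 library gave 0 to 1 in untreated cells, 0 to 2 with NACET and 0 to 17 with H2O2. Of all genes these fits called 1.88 to 7.27, 2.3 to 7.6 and 2.91 to 30.9%. With H2O2, leaving out both replicate 1 libraries gave 4, against 17.1% of all genes. Counts from DESeq2, the fit of 18 samples and unadjusted p-values have no share of all genes beside them here. They cannot be read as an excess of members. PSMD7 lost its call with H2O2 in control cells with upper-quartile factors. The causes of these changes were not tested.

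Alternatives without each replicate number were added after seeing the data. With 3 samples per group a change must exceed the wide replicate spread to pass without pairing, and PSMB9, at 27 to 167 reads, and PSMC1, at 45 to 113, are the least deeply counted tested members.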
